A study of Mus musculus with 61 samples.

Results

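The chemokine receptors of T cells are described here through 9 genes, Ccr2, Ccr4, Ccr6, Ccr7, Ccr8, Ccr9, Cxcr3, Cxcr5 and Cxcr6, chosen by gene symbol and all found among the 24421 genes of the count files. Their RNA was followed in 61 mouse RNA-seq libraries of a study on the substitutions Y665F and Y665H of the same tyrosine of STAT5B. In the first experiment, naive CD4+ T cells (CD44 low, CD25-) were sorted from pooled lymph nodes and spleens of C57BL/6 mice aged 2 months, activated, transduced with a retrovirus and kept for 48 h with IL-2 before CD4+GFP+ cells were sorted. The retrovirus carried no STAT5B (the empty vector), unchanged STAT5B or its mutants N642H (a known activating form), Y665F and Y665H, and each vector gave 3 libraries from WT cells and 3 from Stat5a/b-null cells. The null cells came from mice with floxed Stat5a/b and a Cd4-Cre transgene, which deletes floxed genes in developing CD4 and CD8 T cells. The genotype entry of the deposited labels names floxed Stat5a/b for all 30 of these libraries, so that the background was taken from their titles. In the second experiment, T cells were isolated with a kit from spleens of WT, Y665H and Y665F mice aged 2 months and kept for 24 h with IL-2 and IL-7, in 4 libraries each, and 3 libraries of Y665F T cells had no interleukin. The third set held 4 WT, 5 Y665H and 7 Y665F spleens of mice of that age. In these mice the substitution lies in the endogenous Stat5b gene of every cell, by base editing for Y665H and by CRISPR/Cas9 with a donor oligonucleotide for Y665F, and their zygosity is not given in the labels.

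Chemokine receptors are G protein-coupled receptors that couple to Gi and direct cells along gradients of chemokines, and the set a T cell carries decides which tissues and compartments it can enter. CCR7 brings naive and central memory T cells into lymph nodes, CXCR5 brings follicular helper T cells and B cells into follicles, and CCR4, CCR6, CCR8, CCR9, CXCR3 and CXCR6 are carried by effector, regulatory or tissue-homing cells. STAT5B is the transcription factor that IL-2 and related cytokines activate in T cells, and it binds DNA at GAS elements.

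In the GENCODE vM21 annotation (GRCm38), 6 of the genes lie on chromosome 9. Cxcr5 lies at chr9:44511787-44561877, Ccr4 at chr9:114490316-114504916, Ccr8 at chr9:120092114-120094906, Ccr9 at chr9:123678439-123784330, Cxcr6 at chr9:123806475-123811760 and Ccr2 at chr9:124101950-124113557. Ccr7 lies at chr11:99144196-99155077, Ccr6 at chr17:8236043-8257141 and Cxcr3 at chrX:101731535-101734269. Cxcr6 lies within Fyco1 on the opposite strand, with 0 shared exon bases. Of the exon length, 18.8% in Ccr9 and 3.30% in Cxcr5 overlapped exons of a gene on the other strand. The strand setting used in counting is not given in the sources used here, so reads from such a partner could not be separated.

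The GAS core TTCNNNGAA reads the same on both strands. It was searched in the 250 bases before the start of transcription in RefSeq windows of GRCm38.p6, which covered 7 of the 9 genes in 8 windows. The RefSeq starts need not be those of GENCODE. The windows of Ccr4 (chr9:114496545-114496794) and Ccr9 (chr9:123766961-123767210) lie inside the GENCODE genes given above. The bases before the GENCODE starts of Ccr4 and Ccr9 were not searched. Ccr7 and Cxcr5 had no window and were not searched. Of 32851 such windows of all genes, 7.02% held the motif. Of the windows of these receptors, 1 did, upstream of Ccr6, the receptor of CCL20. It held 2 copies, which start 157 and 120 bases before the start and are shown with 10 bases on each side, the motif in capitals, on the plus strand.
Ccr6 upstream copy, chr17:8235876-8235904: aggaccccctTTCAAAGAActttacagtt
Ccr6 downstream copy, chr17:8235913-8235941: gatatgtaatTTCCAAGAAtcaagaagca
The windows of Ccr4 and Cxcr6, which rose and fell with N642H in null cells, held no copy. A match is a stretch of letters and no measure of binding, and its absence says only that these bases do not hold it.

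The number of reads assigned to genes was 18825994 to 49850689 in the libraries of CD4+ T cells, 24203179 to 43330536 in those of spleens and 2017012 to 27394249 in those of splenic T cells, of which 3 fell under 5000000. Stat5b, the gene deleted in the null cells, stood at 2.78, 5.30 and 9.49 CPM in null cells with the empty vector against 187, 209 and 207 CPM in WT cells, and at 186 to 365 CPM in null cells with the 4 STAT5B vectors. CPM are counts scaled to library size with TMM factors, and the CD4+ T cells, splenic T cells and spleens were scaled separately. In the CD4+ libraries Cd4 had a median of 941 CPM and Cd8a of 0.149 CPM, and Ms4a1 and S100a8 were at or near 0. In the splenic T cells Cd8a had a median of 508 CPM and Cd4 of 271 CPM. The spleen libraries held B cell, macrophage, erythroid and neutrophil genes at high levels, and their material is called splenocytes in the labels and spleen tissue in the methods of the study. Labels do not say which libraries came from separate mice, and p-values measure the spread between libraries.

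The levels differed widely between the receptors. They were divided by the merged length of all GENCODE exons of a gene, which need not be the exons used in counting. The order of the receptors depends on that length. Per kilobase of merged exon length, WT CD4+ T cells with the empty vector had a level of Ccr7 of 160 ± 28.2 CPM per kb (SD, n = 3), followed by Ccr4 with 56.1 ± 4.01, Ccr8 with 28.3 ± 10.3 and Ccr6 with 21.5 ± 3.31. Cxcr6 (0.672 ± 0.102), Cxcr3 (0.612 ± 0.405) and Cxcr5 (0.259 ± 0.0786) stood far lower, and Ccr2 and Ccr9 had 0.0548 and 0.0226 CPM per kb. Ccr8 and Ccr6 did not differ beyond their spread, nor did Cxcr6 and Cxcr3. In null cells with the empty vector, Ccr7 again led with 334 ± 41.6 CPM per kb, but Ccr6 (55.7 ± 7.32) and Ccr8 (45.7 ± 16.5) came before Ccr4 (11.9 ± 3.90). In WT splenic T cells the order by level was Ccr7 (147 ± 33.4), Cxcr6 (43.7 ± 6.59), Cxcr3 (19.2 ± 10.1) and Ccr2 (15.96 ± 6.74), with Ccr6 (0.621 ± 0.293) and Ccr8 (0.311 ± 0.166) last (n = 4). Cxcr3 and Ccr2 did not differ there beyond their spread, and before the division by length Ccr2 had a mean of 108 CPM and Cxcr3 of 33.3 CPM. In WT spleens, Cxcr5 (48.9 ± 1.40), Ccr7 (37.6 ± 5.70) and Ccr6 (24.3 ± 2.17) led and Ccr8 was lowest with 0.438 ± 0.222 CPM per kb (n = 4).

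The first comparison asked how the loss of Stat5a/b bears on these genes, in cells that carry the empty vector. Of the 9 receptors, 5 were called, which means that they passed both thresholds, an adjusted p below 0.05 and a log2 fold change of more than 1 in size (edgeR quasi-likelihood test, Benjamini-Hochberg adjustment over all genes), against 4.68% of all 21975 genes tested. Ccr4 was lower in the null cells, and Cxcr5, Cxcr6, Ccr6 and Ccr7 were higher. The median log2 fold change was 1.05 over the receptors and -0.12 over all genes.

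Ccr4, the receptor of CCL17 and CCL22 on Th2, regulatory and skin-homing T cells, had 45.2, 42.1 and 23.0 CPM in null cells and 168, 188 and 165 CPM in WT cells. The groups were far apart, with a log2 fold change of -2.24 (SE 0.21, adjusted p = 2.9e-08), and null cells held 21.2% ± 6.95 (SD, n = 3) of the WT level. Cxcr5, the receptor of CXCL13, had 7.97, 7.80 and 7.21 CPM in null cells and 0.773, 0.657 and 1.16 CPM in WT cells, a log2 fold change of 3.14 (SE 0.30, adjusted p = 3.9e-08). Cxcr6, the receptor of CXCL16, had 6.62, 10.3 and 5.80 CPM in null cells and 1.09, 1.48 and 1.33 CPM in WT cells. Its groups did not overlap, with a log2 fold change of 2.54 (SE 0.36, adjusted p = 1.9e-05).

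Ccr6 had 140, 110 and 138 CPM in null cells against 49.5, 42.4 and 57.8 CPM in WT cells, a log2 fold change of 1.37 (SE 0.32, adjusted p = 0.0035). Ccr7 had 574, 670 and 737 CPM against 257, 367 and 329 CPM, a log2 fold change of 1.06 (SE 0.24, adjusted p = 0.0034). Every null library lay above every WT library for these genes. The log2 fold change of Ccr7 dropped below 1 without the null replicate 3 (0.97, adjusted p = 0.018) and without the WT replicate 1 (0.93, adjusted p = 0.029). Ccr2, Ccr8, Ccr9 and Cxcr3 were not called, with log2 fold changes from -0.52 to 1.05 and adjusted p from 0.20 to 0.80.

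**Figure D1:**
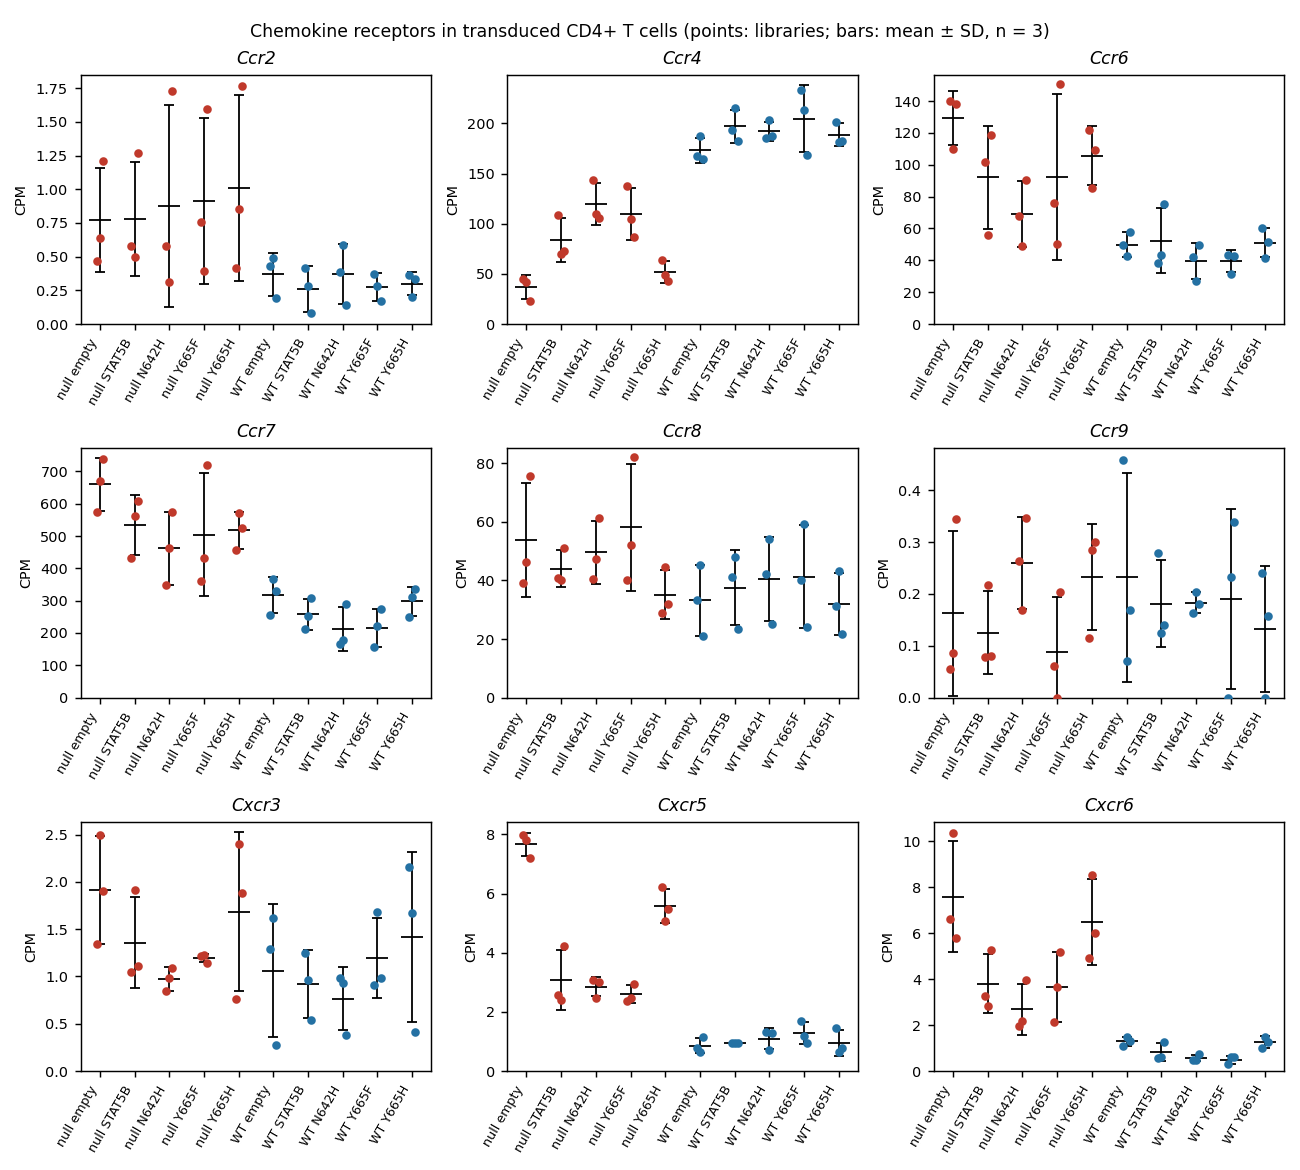
CPM of each receptor in the 30 libraries of transduced CD4+ T cells, with null cells in red and WT cells in blue. Points are libraries, and bars give the mean and SD of 3 libraries. Ccr4 ranged from 23.0 to 45.2 CPM in null cells with the empty vector and from 165 to 233 CPM over all WT cells, while Cxcr5 was highest in null cells with the empty vector, at 7.21 to 7.97 CPM.

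Adding back STAT5B to null cells moved Ccr4 and Cxcr5 towards the level of the WT cells. STAT5B, N642H and Y665F raised Ccr4 and lowered Cxcr5, and Y665H changed no receptor past the thresholds. Cxcr6 was lowered past the thresholds with N642H alone in the fit without a replicate block. With the block, and in DESeq2 (-1.01, adjusted p = 0.043, and -1.07, adjusted p = 0.015), Cxcr6 was also called with STAT5B and Y665F. In the fit without the block, 2 of the 9 receptors were called with STAT5B (0.477% of all 20113 genes), 3 with N642H (2.88%), 2 with Y665F (2.37%) and 0 with Y665H (0.0249%). With Y665H, 3 receptors had an unadjusted p under 0.05, and DESeq2 called 0 as well. These comparisons share the same 3 libraries with the empty vector. The median log2 fold change over the receptors was -0.32 for STAT5B, -0.56 for N642H, -0.52 for Y665F and -0.21 for the Y665H vector, against medians over all genes between -0.02 and 0.04.

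Ccr4 had 109, 70.1 and 72.5 CPM with STAT5B, 143, 109 and 105 CPM with N642H, and 138, 105 and 86.5 CPM with Y665F. All of these lay above the 23.0 to 45.2 CPM with the empty vector. With Y665H Ccr4 had 63.7, 48.6 and 43.3 CPM, of which 2 libraries lay above all of the empty vector. Its log2 fold change against the empty vector was 1.18 with STAT5B (SE 0.24, adjusted p = 0.018), 1.66 with N642H (SE 0.24, adjusted p = 0.00024) and 1.55 with Y665F (SE 0.24, adjusted p = 0.00053), beside 0.51 with Y665H (SE 0.24, adjusted p = 0.90). The call with STAT5B was lost without replicate 3 of the empty vector (0.92, adjusted p = 0.033) and without replicate 1 of STAT5B (0.94, adjusted p = 0.12). That replicate 3 had both the lowest Ccr4 and the highest Stat5b of the group, 9.49 CPM, and the part of residual Stat5b in the result was not tested.

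As a share of the mean of WT cells carrying the empty vector, Ccr4 had a mean (and range over 3 libraries) of 48.4% (40.4% to 62.9%) for STAT5B, 68.9% (60.8% to 82.7%) for N642H, 63.3% (49.9% to 79.5%) for Y665F and 29.9% (25.0% to 36.7%) for Y665H. In the null cells, none of the libraries reached the lowest WT library of 165 CPM. Stat5a, which no vector carried, stood at 1.70 to 14.9 CPM over the null libraries and at 99.5 to 179 CPM over the WT libraries. The part of Stat5a in this shortfall was not tested.

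Cxcr5 moved the opposite way. It had 2.58, 2.41 and 4.24 CPM with STAT5B, 3.08, 2.48 and 3.02 CPM with N642H and 2.37, 2.48 and 2.94 CPM with Y665F, all below the 7.21 to 7.97 CPM of the empty vector. With Y665H it had 6.22, 5.06 and 5.48 CPM. The log2 fold change against the empty vector was -1.34 with STAT5B (SE 0.21, adjusted p = 0.0033), -1.46 with N642H (SE 0.22, adjusted p = 0.00028) and -1.59 with Y665F (SE 0.22, adjusted p = 0.00017), beside -0.44 with Y665H (adjusted p = 0.90). These levels rested on 61 to 290 counts per library. On the same scale Cxcr5 stayed above the WT cells, at 357% ± 118 for STAT5B, 332% ± 38.4 for N642H, 301% ± 35.3 for Y665F and 648% ± 67.8 for Y665H (SD, n = 3 each).

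Cxcr6 had 3.29, 2.85 and 5.27 CPM with STAT5B, 1.95, 2.16 and 3.95 CPM with N642H and 2.12, 3.64 and 5.19 CPM with Y665F, all below the 5.80 to 10.3 CPM of the empty vector. It had 4.93, 8.54 and 5.99 CPM with Y665H, which overlapped the empty vector. Cxcr6 passed both thresholds with N642H, with a log2 fold change of -1.57 (SE 0.35, adjusted p = 0.0070), and the adjusted p was 0.050 without replicate 1 of N642H. With STAT5B it was -1.02 (adjusted p = 0.15) and with Y665F -1.10 (adjusted p = 0.054), where it was called without replicate 3 of the empty vector (-1.24, adjusted p = 0.041) and without replicate 3 of Y665F (-1.43, adjusted p = 0.018). With the replicate number as a block, which pairs the libraries of the null cells, Cxcr6 was also called with STAT5B (-1.05, adjusted p = 0.016) and with Y665F (-1.16, adjusted p = 0.0040), so that 3 receptors were called with each of the 3 vectors. Fyco1, which contains Cxcr6 on the other strand, went from 40.0 to 54.0 CPM with the empty vector to 27.3 to 29.3 CPM with N642H, and its part in the counts of Cxcr6 was not tested.

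The other receptors were not called in the null cells against the empty vector. Ccr7 had 348, 464 and 573 CPM with N642H and 360, 434 and 720 CPM with Y665F, beside 574 to 737 CPM with the empty vector. Ccr6 had 67.9, 48.8 and 90.4 CPM with N642H, below all libraries with the empty vector, with a log2 fold change of -0.95 (adjusted p = 0.059). Ccr6 was called without replicate 3 of N642H (-1.12, adjusted p = 0.044) and, for Y665F, without replicate 3 of Y665F (-1.07, adjusted p = 0.018). Ccr8, the receptor of CCL1 on regulatory and Th2 cells, lay between 28.9 and 82.2 CPM over all null libraries, with log2 fold changes from -0.60 to 0.08. Cxcr3, the receptor of CXCL9 and CXCL10 on Th1 cells, lay between 0.760 and 2.49 CPM, and Ccr2, the receptor of CCL2, between 0.315 and 1.77 CPM. Ccr9, the gut-homing receptor of CCL25, was counted 0 to 10 times per null library, too few to show a difference.

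The mutants were also set against STAT5B itself in the null cells, and no receptor was called. This held for N642H (0.0696% of all genes called), Y665F (0.00994%) and Y665H (0.149%), with 0, 0 and 3 receptors at an unadjusted p under 0.05 and 0 called by DESeq2. Cxcr5 was 0.90 higher on the log2 scale with Y665H than with STAT5B (SE 0.21, adjusted p = 0.095), and all 3 libraries with Y665H lay above all 3 with STAT5B. Without replicate 3 of STAT5B, whose 4.24 CPM was the highest of its group, this difference was 1.19 (adjusted p = 0.018) and passed both thresholds, and with the replicate block it was 0.92 (adjusted p = 0.0073), short of the fold. For Ccr4, log2 differences from STAT5B were 0.48 with N642H, 0.37 with Y665F and -0.67 with Y665H, with adjusted p from 0.28 to 1.

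In WT cells, which carry their own Stat5a and Stat5b, no receptor was called with a vector in the edgeR fit without a replicate block. The count was 0 with STAT5B (0.00975% of all 20509 genes), N642H (0.985%), Y665F (0.707%) and Y665H (0.00488%). The receptors with an unadjusted p under 0.05 numbered 0, 2, 3 and 0. DESeq2 called 0, 0, 1 and 0. The gene that DESeq2 called was Cxcr6 with Y665F (-1.35, adjusted p = 0.023). Cxcr6 had 0.291, 0.595 and 0.592 CPM with Y665F and 0.492, 0.467 and 0.726 CPM with N642H, all below the 1.09 to 1.48 CPM of WT cells with the empty vector. These were 7 to 36 counts per library, and the log2 fold changes were -1.36 (adjusted p = 0.10) and -1.16 (adjusted p = 0.19). With the replicate number as a block, edgeR called Cxcr6 with Y665F (-1.38, adjusted p = 0.0051) and with N642H (-1.21, adjusted p = 0.015). Same-numbered WT libraries correlated above 0.1 in 29 of 30 pairs. Ccr4 lay between 165 and 233 CPM over the 15 WT libraries and between 23.0 and 143 CPM over the 15 null libraries, which did not overlap. Cxcr5 lay between 0.634 and 1.70 CPM in the WT and between 2.37 and 7.97 CPM in the null libraries.

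The difference between the responses of null and WT cells was tested itself, as an interaction. For STAT5B 0 receptors were called (0.1% of all genes), with 2 at an unadjusted p under 0.05 and 1 called by DESeq2, Cxcr5. With the replicate block, edgeR called Ccr4 (1.02, adjusted p = 0.00028) and Cxcr5 (-1.46, adjusted p = 0.022) for STAT5B. For N642H 1 was called (0.341%) and for Y665F 2 (0.419%). The response of Ccr4 was larger in null than in WT cells by 1.55 on the log2 scale with N642H (SE 0.29, adjusted p = 0.0053) and by 1.34 with Y665F (SE 0.29, adjusted p = 0.023). The response of Cxcr5 to Y665F differed by -2.11 (SE 0.41, adjusted p = 0.0083), and to N642H by -1.76 (adjusted p = 0.051), which was called without replicate 3 of the WT empty vector (-2.08, adjusted p = 0.018) and without replicate 2 of WT N642H (-2.01, adjusted p = 0.020). DESeq2 (adjusted p = 0.0013) and edgeR with the replicate block (adjusted p = 0.0014) also called this difference with N642H. Cxcr5 fell in null cells and had log2 fold changes of 0.56 with Y665F and 0.35 with N642H in WT cells, neither past the test. With the empty vector its mean was 0.862 CPM in WT and 7.66 CPM in null cells, which leaves WT cells little room for a fall. The part of that low start in the interaction was not tested. These interactions use the same libraries with the empty vector as the comparison of null with WT cells. For Cxcr6 the responses differed by -0.35 with N642H and 0.29 with Y665F, with adjusted p of 0.88 and 0.92. The call of Ccr4 with Y665F was lost with the 4 groups fitted alone (1.30, adjusted p = 0.11) and without any of 5 libraries, with adjusted p from 0.056 to 0.11. These were replicate 3 of the null empty vector, replicate 1 of null Y665F, replicate 2 of the WT empty vector and replicates 2 and 3 of WT Y665F. That of Cxcr5 was lost without replicate 2 of the WT empty vector (-1.95, adjusted p = 0.052).

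**Figure D2:**
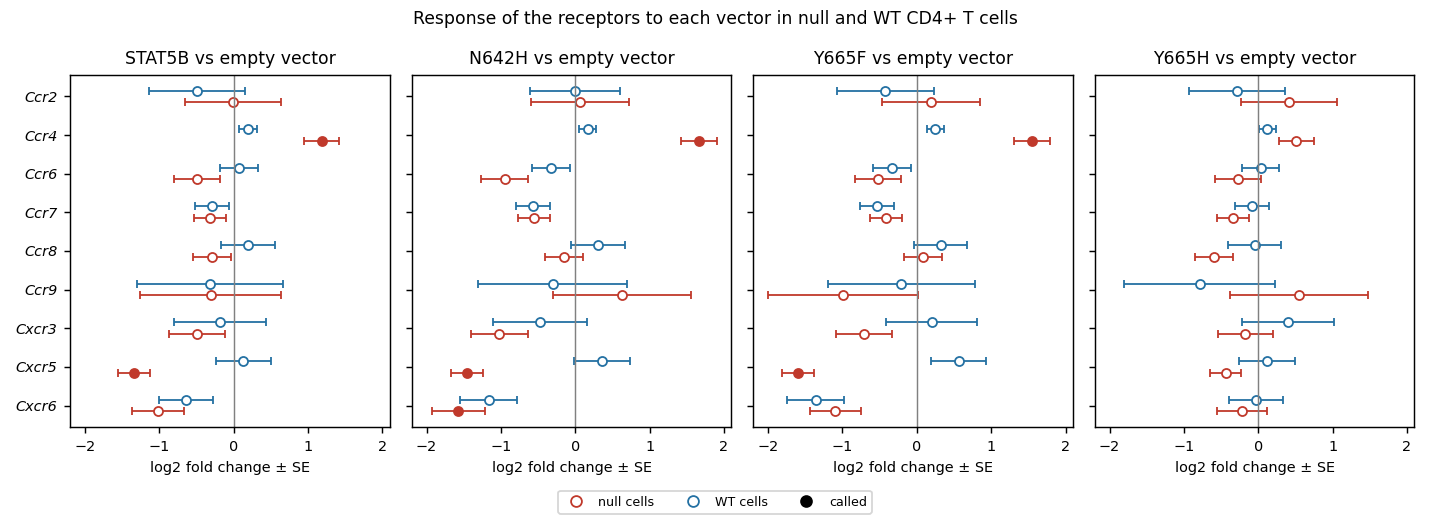
Log2 fold change of each receptor against the empty vector with its standard error, for 4 vectors, in null cells (red) and WT cells (blue). Filled points passed both thresholds. Ccr4 lies at 1.18 to 1.66 and Cxcr5 at -1.34 to -1.59 in null cells with STAT5B, N642H and Y665F, and no blue point is filled.

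Over the 30 CD4+ libraries, the genes with the levels most like Ccr4 (Pearson correlation of log2 CPM, over 9715 or 9716 other genes whose mean was 5 CPM or more) were Kcnk5 (0.969), Actr3b (0.962) and Itih5 (0.959). Those most like Cxcr5 were Itm2a (0.953), Ankrd12 (0.948) and Ssbp2 (0.937), and those most like Cxcr6 were Cd27 (0.969), Gbp9 (0.969) and Gsap (0.964). The libraries share their groups, and these values are descriptions.

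Other genes of the pathway were followed as lists. Of 14 other chemokine receptors, 12 were tested in null cells and 0 were called with any vector in edgeR (0 to 4 at an unadjusted p under 0.05), and Cxcr4, the receptor of CXCL12, was higher in null than in WT cells with the empty vector (1.27, adjusted p = 0.00080). Of 16 ligands of the 9 receptors, 11 were tested in null cells and 1 was called, Ccl22, a ligand of CCR4, with Y665F (3.30, SE 0.89, adjusted p = 0.024). Ccl20 and Cxcl13, the ligands of CCR6 and CXCR5, were higher in null than in WT cells with the empty vector (5.69, adjusted p = 0.025, and 5.19, adjusted p = 0.038). Their medians over the 30 CD4+ libraries were 0.079 and 0.025 CPM, and Cxcl13 was counted 0 times in 12 of these, so that the size of both folds is uncertain. Among 17 genes of receptor signalling, 0 were called with a vector in null cells (2 to 9 at an unadjusted p under 0.05), and in WT cells Rgs1 and Rgs16, which shorten G protein signals, were higher with N642H (1.31 and 1.37) and Y665F (1.17 and 1.11). Of 16 other homing and egress genes, 1 was called in WT cells with N642H and 1 with Y665F, in each S1pr1, the receptor for exit from lymph nodes, which was lower (-1.13 and -1.28). Fut7 and Selplg, which serve rolling on selectins, were lower in null than in WT cells with the empty vector (-2.05 and -1.02). Of 10 lineage factors, Bcl6, the factor of follicular helper cells, was lower in null cells with STAT5B (-1.51, adjusted p = 0.00073), N642H (-2.39, adjusted p = 1.9e-06) and Y665F (-2.16, adjusted p = 6.7e-06) and higher in null than in WT cells with the empty vector (2.78, adjusted p = 5.1e-07). Foxp3, the factor of regulatory T cells, was higher in null cells with N642H (1.71, adjusted p = 0.026) and Y665F (1.61, adjusted p = 0.041). Maf and Tbx21 were higher in null than in WT cells with the empty vector (4.07 and 3.79). The other 8 lineage factors were not called with a vector in null cells.

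In splenic T cells kept with IL-2 and IL-7, a single receptor passed the test, Ccr4, which was higher in Y665F than in Y665H cells. Of the 9 receptors, 1 was called in Y665F against Y665H cells (4.78% of all 22313 genes) and 0 in Y665F against WT cells (1.53%), in Y665H against WT cells (0.0717%) and in Y665F cells with against without interleukin (2.97%). The receptors at an unadjusted p under 0.05 in the last 3 numbered 1, 2 and 1, and DESeq2 called 0 in each. Ccr4 had 10.5, 10.98, 5.79 and 10.5 CPM in Y665F cells, 2.57, 1.46, 7.44 and 2.19 CPM in Y665H cells and 10.3, 7.02, 7.29 and 8.26 CPM in WT cells. In Y665H cells 3 libraries lay below all WT and all Y665F libraries, and replicate 3 lay among them. These 3 libraries held 9, 3 and 12 counts of Ccr4 and were the shallowest of their group. The log2 fold change of Y665F against Y665H was 1.32 (SE 0.38, adjusted p = 0.040), beside -1.09 for Y665H against WT (adjusted p = 0.43). Without replicate 3 of Y665H, the difference of Y665H from WT was -1.93 (adjusted p = 0.035) and passed both thresholds. Without the 3 libraries under 5000000 reads the difference of Y665F from Y665H was 1.13 (adjusted p = 0.21). Its call was also lost in a fit of the compared groups alone (adjusted p = 0.088) and without any of 6 of their 8 libraries, with adjusted p from 0.059 to 0.16, and was kept without replicate 3 of Y665H and replicate 3 of Y665F. Without interleukin, Y665F cells had 6.64, 5.04 and 3.69 CPM of Ccr4. No culture time is given for these cells. In the comparison of Y665F cells with against without interleukin, the interleukins and 24 h of culture therefore cannot be told apart.

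The other receptors of the splenic T cells did not pass the test. Ccr7, the lymph node receptor, had 225, 198, 70.2 and 160 CPM in Y665F cells, all below the 238 to 385 CPM of WT and the 230 to 397 CPM of Y665H cells, with log2 fold changes of -0.83 (adjusted p = 0.11) and -0.88 (adjusted p = 0.060). Without replicate 1 of Y665F, Ccr7 was called against Y665H cells (-1.03, adjusted p = 0.040). Ccr9 had 38.4, 48.4, 36.9 and 39.4 CPM in Y665F cells and 58.8, 65.6, 59.8 and 62.3 CPM in Y665H cells, which did not overlap (-0.59, adjusted p = 0.075). Cxcr3 had 49.8, 35.5, 6.10 and 28.5 CPM in Y665F cells, and without the replicate at 6.10 CPM it was called against Y665H cells (1.07, adjusted p = 0.048). Ccr2 lay between 21.7 and 170 CPM, Cxcr6 between 39.4 and 124 CPM and Cxcr5 between 9.51 and 22.3 CPM over the 15 libraries, and their groups overlapped where interleukin was given. Ccr6 and Ccr8 were counted 0 to 35 and 0 to 13 times per library.

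**Figure D3:**
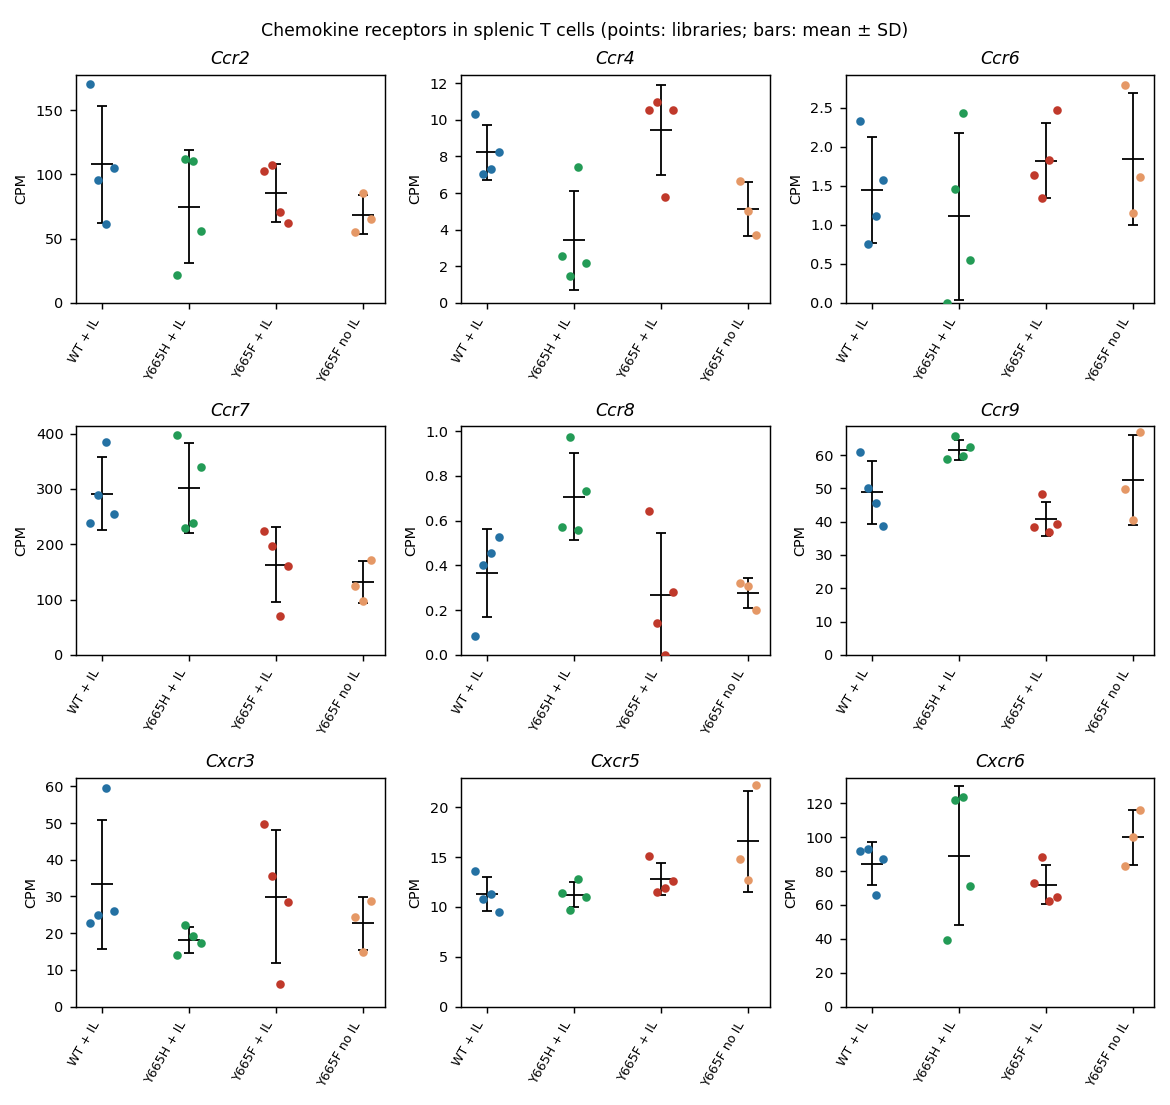
CPM of each receptor in the 15 libraries of splenic T cells, by genotype and interleukin. Points are libraries, and bars give the mean and SD of 4 or 3 libraries. Ccr4 lies at 1.46 to 2.57 CPM in 3 of 4 Y665H libraries, and Y665F replicate 3 is the lowest Y665F library with interleukin for Ccr4, Ccr7 and Cxcr3.

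Replicate 3 of the Y665F cells with interleukin stood apart from its group in other cell types' genes. The summed level of 12 B cell markers was 1077 CPM there, 285 CPM in replicate 4 and 18.5 to 158 CPM in the other libraries with interleukin, and that of 10 erythroid markers was 1091 CPM, 85.9 CPM and 6.69 to 38.0 CPM. Its T cell markers summed to 1888 CPM, against 2693 to 4323 CPM in the others. Other markers differed between whole groups. The 9 neutrophil markers found in the count files, of 10 listed, summed to 10.2 to 18.0 CPM in WT, 23.7 to 96.1 CPM in Y665H and 79.3 to 313 CPM in Y665F cells. Of these 9, 5 were called higher in Y665F than in WT cells. The 7 NK cell markers summed to 45.3 to 197 CPM in WT, 24.6 to 54.1 CPM in Y665H and 91.1 to 127 CPM in Y665F cells, and 3 of 5 tested were called higher in Y665F than in Y665H cells. Of the 12 monocyte and macrophage markers, Itgam (1.67) and Vcan (2.03) were called higher in Y665F than in WT cells, and their sums were 182 to 219 CPM in WT, 42.5 to 583 CPM in Y665H and 180 to 379 CPM in Y665F cells. Cd4 was lower in Y665F than in WT cells (-1.16, adjusted p = 0.029). The part of these cell types in the values of the receptors and ligands of this experiment was not tested. Some chemokines and other receptors were also called in that experiment. Of 14 tested ligands, Ccl2 (3.45, adjusted p = 0.016) and Ccl22 (1.69, adjusted p = 0.042) were higher in Y665F than in WT cells, Ccl22 also against Y665H cells (4.26, adjusted p = 3.6e-05), and Ccl17, Cxcl10 and Ccl22 with against without interleukin. Of 14 other receptors, Ccr1 was higher in Y665F than in WT cells (2.21, adjusted p = 0.016), and against Y665H cells Ccrl2 was higher (2.06) and Cxcr4 lower (-1.06). Among homing genes, Itgae, part of the integrin that holds T cells to epithelium, was higher in Y665H than in WT cells (1.83, adjusted p = 0.0066) and lower in Y665F than in Y665H cells (-2.59, adjusted p = 1.6e-05).

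In the spleens, Ccr8 was higher in Y665F than in WT and in Y665H mice, and Ccr4 and Cxcr3 were higher by smaller folds. Cxcr6 and Ccr9 were lower in Y665H than in WT spleens. In a bulk spleen fewer cells of a type and less RNA per cell cannot be told apart. Past both thresholds, 1 receptor was called in Y665F against WT (1.2% of all 19418 genes), 0 in Y665H against WT (4.37%) and 1 in Y665F against Y665H (5.28%). For Y665H against WT, 5 receptors had an unadjusted p under 0.05, and DESeq2 called 0. By the adjusted p alone, 5, 3 and 7 of the 9 receptors passed, against 12.2%, 19.8% and 25.8% of all genes.

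Ccr8 had a lowest, median and highest level of 0.854, 1.39 and 1.88 CPM in 7 Y665F spleens, against 0.333, 0.252, 0.774 and 0.699 CPM in WT and 1.03, 0.293, 0.474, 0.322 and 0.602 CPM in Y665H spleens. All Y665F spleens lay above all WT spleens, and the Y665F group overlapped Y665H only at its replicate 1, with 1.03 CPM. The log2 fold change was 1.34 against WT (SE 0.36, adjusted p = 0.023) and 1.31 against Y665H (SE 0.33, adjusted p = 0.0071). It rested on 7 to 71 counts per library, and the call against WT was lost without the WT replicate 1 (1.20, adjusted p = 0.095) and without the WT replicate 2 (1.13, adjusted p = 0.086).

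Ccr4 had 5.22, 7.55 and 8.46 CPM as lowest, median and highest in Y665F spleens, against 3.63, 3.96, 2.97 and 4.23 CPM in WT and 5.07, 3.42, 3.38, 3.07 and 3.34 CPM in Y665H spleens. Every Y665F spleen lay above every other spleen, with log2 fold changes of 0.94 against WT (SE 0.16, adjusted p = 0.0016) and 0.95 against Y665H (SE 0.15, adjusted p = 0.00026). These folds were close to the minimum and passed it, at 1.01 to 1.08, without the WT replicate 4, the Y665H replicate 1 or the Y665F replicates 1 or 2. Cxcr3 had 21.6, 23.2 and 26.1 CPM in Y665F spleens, against 14.9, 12.4, 17.9 and 16.2 CPM in WT and 17.7, 12.1, 15.1, 14.4 and 13.9 CPM in Y665H spleens. Here too the Y665F group lay above the others, by 0.60 against WT (SE 0.11, adjusted p = 0.0018) and 0.68 against Y665H (SE 0.10, adjusted p = 0.00015) on the log2 scale.

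Cxcr6 had 23.4, 15.8, 25.2, 20.9 and 16.6 CPM in Y665H spleens, below the 39.3, 38.8, 34.5 and 34.9 CPM of WT spleens and the 31.7 to 39.7 CPM of Y665F spleens. The log2 fold change of Y665H against WT was -0.85 (SE 0.12, adjusted p = 0.00097), and that of Y665F against Y665H was 0.78 (SE 0.11, adjusted p = 9.2e-05). Ccr9 had 27.2, 21.4, 20.7, 29.7 and 18.6 CPM in Y665H spleens, below the 33.8 to 41.0 CPM of WT spleens, with a log2 fold change of -0.69 (SE 0.12, adjusted p = 0.0021). Y665F spleens lay between, at 24.8 to 36.1 CPM, 0.36 above Y665H (adjusted p = 0.021).

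Y665F spleens exceeded Y665H spleens in Ccr7 by 0.78 on the log2 scale (SE 0.13, adjusted p = 0.00037), with 79.1 to 115 CPM in Y665F, 46.9 to 75.7 CPM in Y665H and 62.0 to 89.3 CPM in WT spleens. Cxcr5 and Ccr6, which B cells also express, were lower in Y665F than in WT spleens. Cxcr5 had 113 to 141 CPM in Y665F and 159 to 169 CPM in WT spleens (-0.37, SE 0.09, adjusted p = 0.016). Ccr6 had 38.2 to 46.9 CPM and 52.7 to 63.4 CPM (-0.39, SE 0.11, adjusted p = 0.024). Cxcr5 was also lower in Y665H spleens (-0.33, SE 0.10, adjusted p = 0.024). Ccr2, which monocytes carry, was 0.44 higher in spleens with Y665F than with Y665H (SE 0.15, adjusted p = 0.034). The adjusted p of these small differences rose above 0.05 without some libraries. It reached 0.073 and 0.10 for Ccr6 without WT replicates 1 or 2, and 0.054 to 0.078 for Cxcr5 in Y665H spleens without WT replicates 1 or 2 or Y665H replicates 2 or 3. It reached 0.053 to 0.062 for Ccr9 between the mutants without Y665H replicates 2, 3 or 5, and 0.056 to 0.067 for Ccr2 without Y665H replicates 1, 4 or 5 or Y665F replicates 2 or 3.

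**Figure D4:**
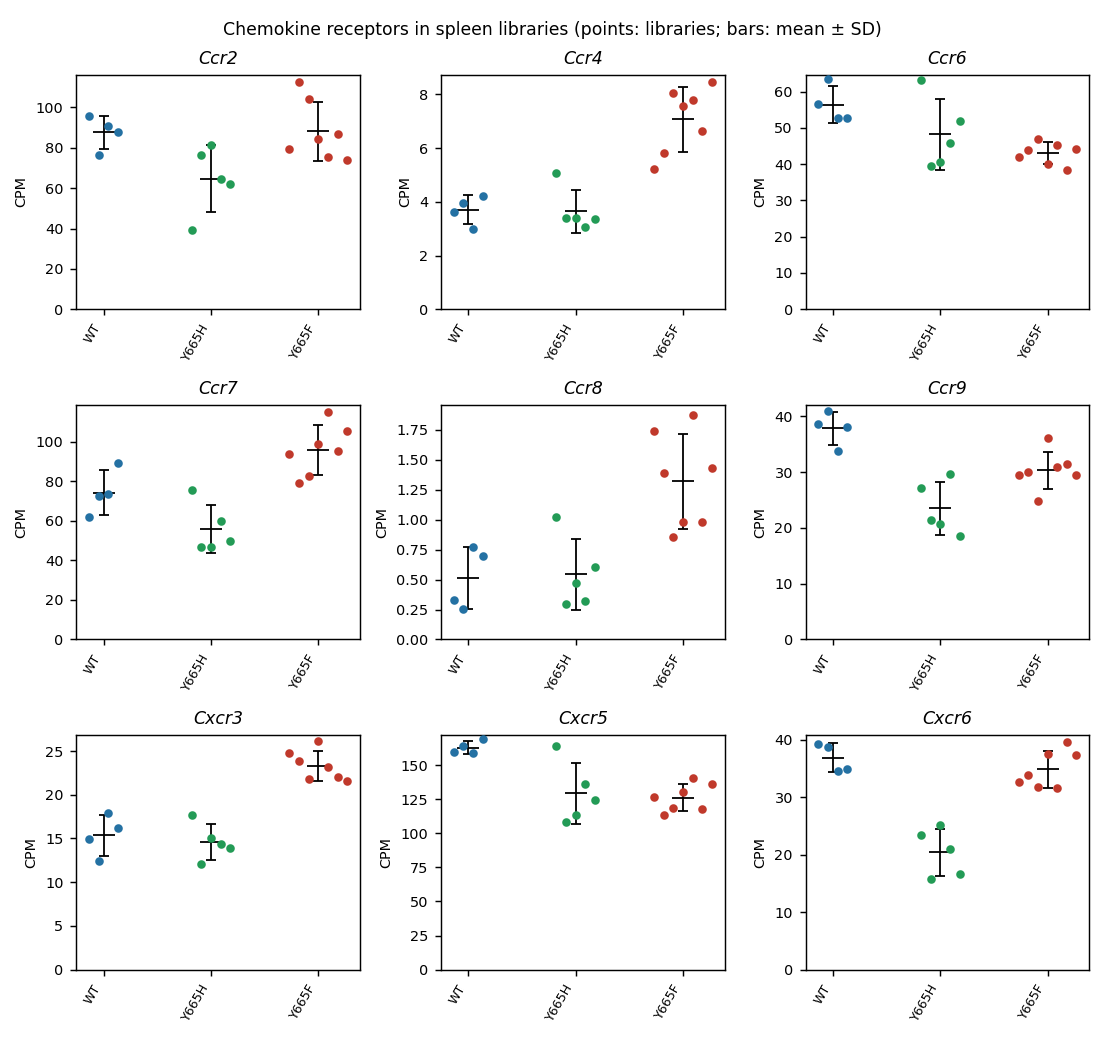
CPM of each receptor in 4 WT, 5 Y665H and 7 Y665F spleen libraries. Points are libraries, and bars give the mean and SD. Ccr4 and Cxcr3 of every Y665F spleen lie above all other spleens, and Cxcr6 and Ccr9 of every Y665H spleen lie below all WT spleens.

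Replicate 1 of the Y665H spleens stood apart from its group. It had the lowest Ccr2 (39.3 CPM) and the highest Ccr4, Ccr6 (63.2 CPM), Ccr7, Ccr8, Cxcr3 and Cxcr5 (164 CPM) of the 5, and its erythroid markers summed to 800 CPM against 3746 to 5334 CPM in the others. Without it, Ccr2 did not pass for Y665F against Y665H (0.28, adjusted p = 0.066), Ccr4 passed both thresholds (1.08, adjusted p = 1.4e-05) and Ccr8 was 1.65 higher (adjusted p = 0.00077). For Y665H against WT, Ccr6 (-0.31, adjusted p = 0.021) and Ccr7 (-0.51, adjusted p = 0.0048) then passed the adjusted p beside Cxcr5 (-0.40), Ccr9 (-0.71) and Cxcr6 (-0.88).

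The cell type markers moved with the genotype. The summed level of 12 T cell markers was 784 to 919 CPM in WT, 522 to 793 CPM in Y665H and 1026 to 1382 CPM in Y665F spleens, and 7 of the 12 were called higher in Y665F than in Y665H spleens. The 12 B cell markers summed to 4976 to 5820 CPM in WT, 3822 to 5533 CPM in Y665H and 3846 to 4762 CPM in Y665F spleens. Erythroid markers summed to 742 to 1646 CPM in WT, 800 to 5334 CPM in Y665H and 464 to 1562 CPM in Y665F spleens, and neutrophil markers to 201 to 324, 124 to 1573 and 398 to 975 CPM. Monocyte and macrophage markers lay between 2045 and 2922 CPM in all spleens, and NK cell markers at 111 to 161 CPM in WT against 70.6 to 118 CPM in mutant spleens. The part of these cell types in the differences per library size was not tested, beyond the scales that follow.

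Set against the mean log2 CPM of the T cell markers, which was 0.56 higher in Y665F and 0.46 lower in Y665H than in WT spleens, several differences shrank or turned. In Y665F against Y665H spleens, 7 receptors that were higher per library size were lower relative to the T cell markers, by 0.16 for Ccr4, 0.21 for Ccr8, 0.24 for Ccr7, 0.25 for Cxcr6, 0.36 for Cxcr3, 0.56 for Ccr2 and 0.65 for Ccr9 on the log2 scale. Ccr8 had means of 0.515, 0.543 and 1.32 CPM in WT, Y665H and Y665F spleens. The 0.5 CPM added before taking logs shrinks its differences on the marker scales, so that their sign and size are uncertain. Against WT, Ccr4 was 0.28 higher in Y665F spleens (unadjusted exact permutation p = 0.048, two-sided), while Ccr8 was 0.29 higher (exact permutation p = 0.20) and Cxcr3 0.03 higher (exact permutation p = 0.81). Y665H spleens were also above WT on this scale, by 0.44 for Ccr4 (exact permutation p = 0.0079, the smallest that 5 against 4 libraries can give), 0.40 for Cxcr3 (exact permutation p = 0.016) and 0.50 for Ccr8 (exact permutation p = 0.048). The difference of Cxcr6 between Y665H and WT spleens was -0.39 on this scale (exact permutation p = 0.048), and the difference of Ccr9 was -0.23 (exact permutation p = 0.12). Relative to the B cell markers, Ccr4, Ccr8 and Cxcr3 stayed 1.08, 1.09 and 0.84 higher in Y665F than in WT spleens (exact permutation p = 0.0030 each), which is the smallest p that 7 against 4 libraries can give. Cxcr5 in Y665F spleens was -0.13 relative to the B cell markers and Ccr6 -0.15 (exact permutation p = 0.027 and 0.17). These were 54 tests on 2 scales, with p-values not adjusted.

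**Figure D5:**
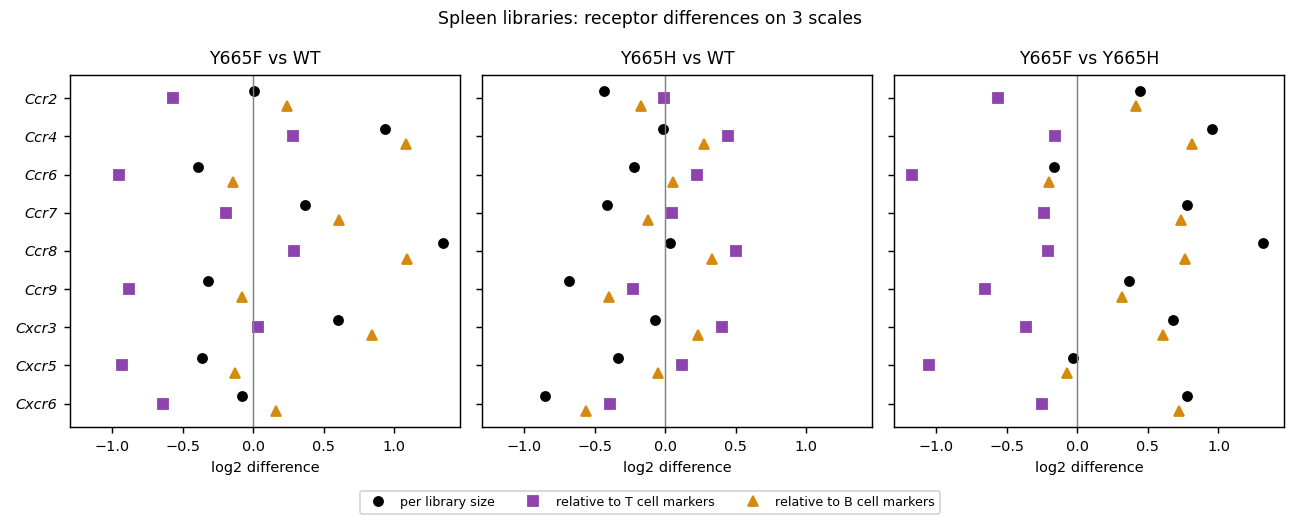
Log2 difference of each receptor between spleen groups on 3 scales, per library size (black circles), relative to the T cell markers (purple squares) and relative to the B cell markers (orange triangles). In Y665F against Y665H spleens, the circles of Ccr4, Ccr7, Ccr8, Cxcr3 and Cxcr6 lie at 0.68 to 1.31 and their squares at -0.16 to -0.36. Squares and triangles of Ccr8 rest on levels near the 0.5 CPM added before taking logs, which shrinks its differences.

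Other receptors and homing genes changed in the same spleens. Of 14 other chemokine receptors, Ackr1, the receptor that erythrocytes carry, was higher in Y665H than in WT spleens (2.08, adjusted p = 0.0039) with Cxcr1 (1.38) and Ccrl2 (1.20), and these 3 were lower in Y665F than in Y665H spleens. Ccr3, the eosinophil receptor, was lower in Y665F than in WT spleens (-1.26, adjusted p = 0.0040). Of 14 ligands tested, 0 were called between spleen groups in edgeR, with 1 to 5 at an unadjusted p under 0.05. Of 16 homing and egress genes, Fut7, which makes selectin ligands, had a higher level in Y665F than WT spleens (1.07, adjusted p = 0.0014), and Gpr15, S1pr5 and Itgae were 1.68, 1.36 and 1.17 higher than in Y665H spleens. Foxp3 was the lineage factor called in Y665F against WT spleens (1.12, adjusted p = 0.00032). It was also higher than in Y665H spleens (1.23), with Gata3 (1.47) and Eomes (1.01).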

How the data were processed

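RNA-seq counts of 61 libraries were analysed. The authors trimmed reads with Trimmomatic 0.36, aligned them to mm10 with STAR and counted reads per gene with HTSeq 0.9.1, and deposited these counts without normalization. Groups came from the deposited labels. The 5 closing lines of each file, for reads without a gene, held 28.4% to 36.9% of reads in CD4+ T cells, 63.9% to 85.7% in splenic T cells and 62.8% to 69.4% in spleens and were left out.

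Counts were fitted in R 4.3.3 with edgeR 4.0.16 (at least 10 reads over the libraries of a fit, TMM factors, glmQLFit, glmQLFTest, Benjamini-Hochberg adjustment over all genes), separately for null cells, WT cells, both together, splenic T cells and spleens. A call needed an adjusted p below 0.05 and a log2 fold change above 1 in size. Standard errors were taken as the log2 fold change over the root of F, in absolute value. Marker scales used log2 of CPM plus 0.5.

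The receptors, gene lists and comparisons were chosen with earlier results of these data known. All 9 receptors were described, with fold changes where the adjusted p passed and otherwise as ranges or beside a called value; of each list, up to 5 called genes were named per comparison. A few calls that appear when 1 library is left out were named after their values were seen.

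Pairing by replicate number was checked by correlating the deviations from group means, which in null cells exceeded 0.1 in 30 of 30 same-numbered pairs (median 0.465), and the replicate block is given there. The fits were tested on simulated data. Alternatives were RLE factors, DESeq2 1.42.0, filterByExpr, no filter, the compared groups alone, the block, no fold-change minimum, each library left out, no libraries under 5000000 reads and the marker scales. The study also names RUVSeq, which was not used here. Low counts limit Ccr9 in CD4+ T cells and Ccr8 in splenic T cells. Some genes of the lists are not reported here.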

Additional observations from a re-analysis of the deposited data

Results flagged for a closer look

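Of 54 sets of values, each a receptor in a group of 4 to 7 libraries, 3 held a library far from the rest. Chance alone gives about 1 in 20, and the sets of a group share their libraries. Ccr4 in Y665F splenic T cells with interleukin was 5.79 CPM in replicate 3 and 10.5 to 10.98 CPM in the others. Ccr4 in Y665H spleens was 5.07 CPM in replicate 1 and 3.07 to 3.42 CPM in the others. Cxcr3 in WT splenic T cells was 59.5 CPM in replicate 3 and 22.7 to 26.0 CPM in the others.

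The response to a vector differed between null and WT CD4+ T cells, by an interaction test, for Ccr4 with N642H (1.55 on the log2 scale), for Ccr4 with Y665F (1.34) and for Cxcr5 with Y665F (-2.11). Cxcr5 had little room for a fall in WT cells, with a mean of 0.862 CPM with the empty vector.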

How the results depend on the processing

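For 31 receptor differences past the adjusted p, called or not, the alternatives gave 499 values. A called difference had to pass both thresholds again, and the others the adjusted p alone. On the marker scales an unadjusted exact permutation p below 0.05 was enough, so that the cases that passed are not all calls. By these rules 444 values passed, 47 fell short and 8 changed sign. All 8 were spleen values relative to the T cell markers, namely Cxcr5 in Y665H against WT (0.12) and, in Y665F against Y665H, Ccr2 (-0.56), Ccr4 (-0.16), Ccr7 (-0.24), Ccr8 (-0.21), Ccr9 (-0.65), Cxcr3 (-0.36) and Cxcr6 (-0.25). The change of sign of Ccr8 is uncertain, since its levels lie near the 0.5 CPM added before taking logs. Of 329 counts of called receptors, 286 stayed within 1.5 times. The causes of the other changes were not tested.

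Without a fold-change minimum, 5, 3 and 7 receptors passed in spleens for Y665F against WT, Y665H against WT and Y665F against Y665H. DESeq2 called 1 with Y665F in WT cells, 1 for the STAT5B interaction and 2 for that of N642H, which RLE factors, filterByExpr and no filter also raised to 2. With the compared groups alone, 1 was called for the Y665F interaction and 0 for Y665F against Y665H splenic T cells, as without the libraries under 5000000 reads (0). Over fits without 1 library, the count ranged from 1 to 2 with STAT5B and 2 to 4 with Y665F in null cells, 0 to 1 for Y665H against STAT5B, 1 to 2 and 0 to 2 for the N642H and Y665F interactions, 0 to 1 for Y665H against WT and 0 to 2 for Y665F against Y665H splenic T cells, and 0 to 2 and 1 to 2 for Y665F against WT and against Y665H spleens.

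Among WT cells, the correlation of same-numbered libraries passed 0.1 in 29 of 30 pairs (lowest 0.0991), and 14 of 15 libraries correlated best with their own number. In splenic T cells these were 6 of 21 pairs and 1 of 15 libraries, and in spleens 4 of 13 pairs and 2 of 16 libraries. When the replicate block was added, 1 receptor was called in WT cells with N642H and 1 with Y665F, in each Cxcr6 (-1.21, adjusted p = 0.015, and -1.38, adjusted p = 0.0051). For the STAT5B interaction 2 were called, Ccr4 (1.02, adjusted p = 0.00028) and Cxcr5 (-1.46, adjusted p = 0.022), and in null against WT cells with the empty vector Cxcr3 was added (1.03, adjusted p = 0.020). The block also gave 2 for the N642H interaction, with Cxcr5 added (-1.76, adjusted p = 0.0014), 0 for Y665F against Y665H splenic T cells and 0 for Y665F against WT spleens. In null cells the block changed no call other than those given for Cxcr6.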
